A study of Mus musculus with 11 samples.

Results

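The comparison described here is that of injured liver with and without Hmgb2, 3 libraries of Hmgb2-/- liver after carbon tetrachloride (CCl4) against 3 of wild-type liver after CCl4, which are 6 of the 11 libraries of the series. All mice were C57BL/6. The libraries are WT_CCL4 4, 5 and 6, from wild-type mice given CCl4, and KO_CCL4 24, 25 and 15, from mice of the genotype Hmgb2-/- given CCl4. Libraries of wild-type mice given oil (WT_Oil 1, 2 and 3) and of Hmgb2-/- mice given oil (KO_Oil 11 and 12) share the fit and serve as uninjured references. The members were chosen by title, and the comparison runs over all genes that could be tested. Sex, age, the dose and number of CCl4 treatments, the time of collection and the deleted part of Hmgb2 are not stated in those sources that were used.

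HMGB2 is a chromatin protein that binds DNA with little regard to sequence and bends it, and it is abundant in dividing cells. CCl4 is turned into a toxic radical by cytochrome P450 enzymes in the hepatocytes around the central vein, so that these cells die first. The surviving liver answers with cell division, with macrophages that clear debris and with matrix made by activated stellate cells, and repeated injury leads to fibrosis.

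Between 9759816 (WT_CCL4 6) and 14116886 (WT_CCL4 4) counts per library fell on the 19207 genes of the table in the 6 libraries. A principal component analysis of the 500 genes with the highest variance put 54.3% of it on component 1, where wild-type libraries lay at 8.07 to 26.2 and knockout libraries at -21.4 to -16.1. WT_CCL4 5 stood at 8.07, apart from WT_CCL4 4 and 6 (24.1 and 26.2). On the second component (24.9%), KO_CCL4 15 stood at 22.0, while KO_CCL4 24 and 25 stood at -10.6 and -18.3. KO_CCL4 24 and 25 carry the letter E in their titles where all other libraries carry S, and what the letter marks was not given. Hepatocyte markers fitted the labelled tissue, with the transcription factor gene Hnf4a at 577 to 989 CPM (counts scaled to library size) and the asialoglycoprotein receptor gene Asgr1 at 302 to 389 CPM. Whether each library is a separate mouse is not given in the labels, so p-values here measure only how far these samples vary, and that variation may be technical.

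Hmgb2 (ENSMUSG00000054717, chromosome 8, 57511906 to 57515999, plus strand of mm10) was read first. Its level was 7.42, 3.14 and 6.69 CPM in WT_CCL4 4, 5 and 6, against 0.387, 0.412 and 0.402 CPM in KO_CCL4 24, 25 and 15, which is 118, 36 and 71 reads against 4, 5 and 4. The groups did not overlap, and the difference was -3.81 on the log2 scale (SE 0.55, edgeR quasi-likelihood test, Benjamini-Hochberg adjusted p = 0.0112). The call of Hmgb2 in knockout against wild type after CCl4 was lost without WT_CCL4 4, WT_CCL4 6 or KO_CCL4 24 (adjusted p = 0.0703, 0.0543 and 0.0833). The related chromatin genes Hmgb1 and Hmgb3 had log2 fold changes of 0.12 (SE 0.23) and 0.02 (SE 0.22) that did not pass (adjusted p = 0.850 and 0.980).

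Of 16866 tested genes 202 passed at an adjusted p below 0.05, which is 1.20% of all tested genes, with 52 higher in the knockout (0.308%) and 150 lower (0.889%). At least 2-fold differences were found for 42 of the higher and 124 of the lower genes. In all 202 the groups did not overlap, as was the case for 20.7% of all tested genes (9.25% with the knockout higher and 11.4% with it lower). At an unadjusted p below 0.05 there were 2818 genes, and 85 genes had an adjusted p between 0.05 and 0.06. By the adjusted p of the authors' deposited table, 201 genes were higher and 397 lower in the knockout, 598 in all or 3.11% of its genes, and 181 of them are among the 202. Genes called lower included mitosis, extracellular matrix and macrophage genes, and genes called higher included pericentral hepatocyte genes, a retinoic acid hydroxylase and genes of lipid synthesis. The shares of 0.308% higher and 0.889% lower over all tested genes are the background for every list count below. A single call in a list describes that gene and not the list.

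**Figure D1:**
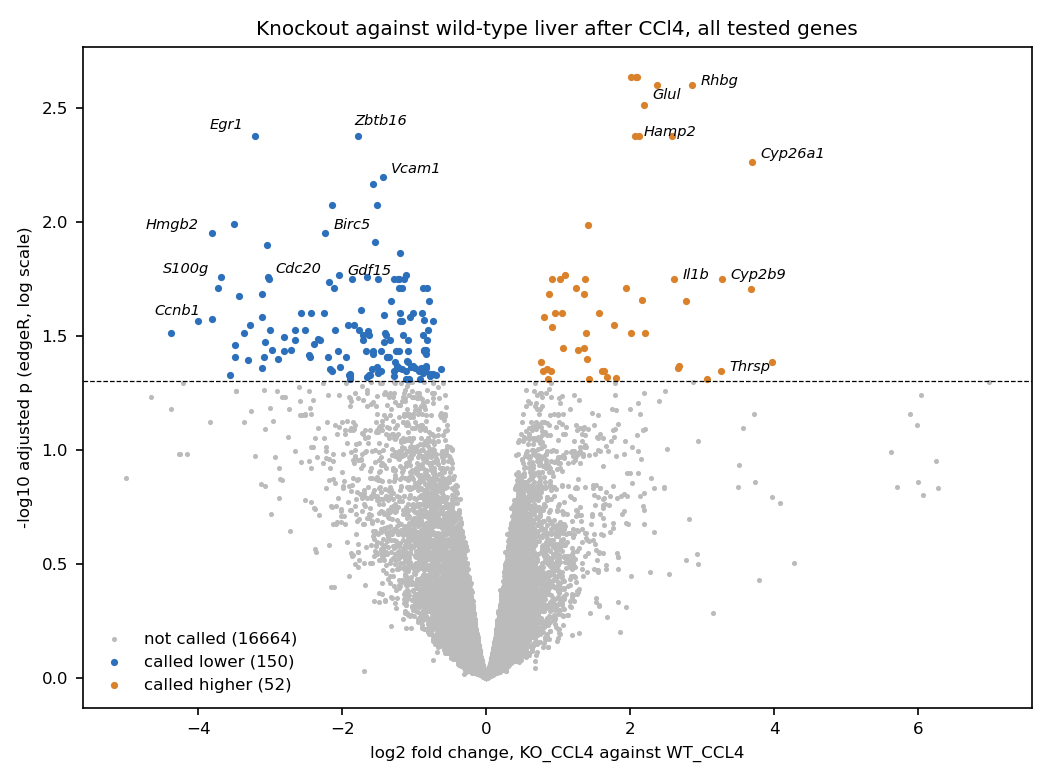
Each point is 1 of 16866 tested genes, with the log2 fold change of KO_CCL4 against WT_CCL4 on the x axis and -log10 of the adjusted p (edgeR) on the y axis. The dashed line marks an adjusted p of 0.05, with 52 genes called higher (orange) and 150 called lower (blue) above it.

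Genes of mitosis were the group with the most calls. Of 40 tested genes of the mitosis list 18 fell and none rose in knockout against wild-type liver, 45% against 0.889% of all tested genes called lower. The median log2 fold change of the list was -2.44, against -0.002 over all tested genes, and all 40 members had values below 0. The filter keeps a gene with enough counts in a few libraries, whatever their group, and some members were not tested without WT_CCL4 4 or 6. Members kept only through WT_CCL4 libraries could hardly come out higher, so these counts are partly set by the filter. Summed over the list, the level was 442, 145 and 409 CPM in WT_CCL4 4, 5 and 6 and 68.7, 98.6 and 55.2 CPM in KO_CCL4 24, 25 and 15. The groups did not overlap. KO_CCL4 24 and 15 lay close to the values after oil (45.1 to 60.6 CPM in wild-type and 58.7 and 68.3 CPM in knockout liver), while KO_CCL4 25 lay above all of these. In bulk RNA, fewer cells of a type and less RNA per cell cannot be told apart.

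Cdc20 (ENSMUSG00000006398, chromosome 4, 118432900 to 118437352, minus strand), which activates the anaphase-promoting complex, had 11.6, 5.93 and 14.2 CPM in the wild-type libraries and 1.35, 1.98 and 0.503 CPM in the knockout libraries. Its lowest wild-type library, WT_CCL4 5, was still above all knockout libraries, and Cdc20 fell 8.07-fold (log2 -3.01, SE 0.49, adjusted p = 0.0179). Elovl1 on the opposite strand overlaps Cdc20 and was not called. Birc5, which encodes the survivin subunit of the chromosomal passenger complex, had 8.55, 3.84 and 7.35 CPM against 1.16, 1.48 and 1.51 CPM and fell 4.73-fold (log2 SE 0.32, adjusted p = 0.0112). The knockout values of Birc5 differed little from each other. For the spindle assembly factor gene Tpx2 the mean was 9.28 ± 4.63 CPM in wild type and 1.03 ± 0.81 CPM in the knockout (SD, n = 3 each), an 8.71-fold fall (adjusted p = 0.0208).

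The B-type cyclins, partners of Cdk1 that drive entry into mitosis, were also among the largest falls. Ccnb1 (chromosome 13, 100778649 to 100786570, minus strand) had 11.6, 3.75 and 11.4 CPM in wild type and 0.0967, 1.48 and 0.201 CPM in the knockout, a log2 difference of -3.80 with SE 0.69 (adjusted p = 0.0268). Ccnb2 (chromosome 9, 70407691 to 70421547, minus strand) had 22.4, 4.28 and 20.2 CPM against 1.84, 1.73 and 0.704 CPM, a log2 difference of -3.44 with SE 0.59 (adjusted p = 0.0213). In both genes WT_CCL4 5 lay between the other wild-type libraries and the knockout. Cenpf, a kinetochore protein, fell 10.3-fold (adjusted p = 0.0308). The remaining calls of the list were Ube2c, Nek2, Kif20a, Hmmr, Plk1, Top2a, Prc1, Anln, Ect2, Ckap2, Racgap1 and Kif2c.

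Of the 12 largest falls among called genes with a mean of at least 1 CPM, 3 were of the mitosis list (Ccnb1, Ccnb2 and Cenpf). The others were Hmgb2 itself, S100g, the kinesin genes Kif18b, Kifc1 and Kif14, the spindle genes Psrc1 and Knstrn, Parpbp, which encodes a partner of the DNA repair enzyme PARP1, and Cdkn3, a phosphatase of cyclin-dependent kinases. Knstrn averaged 14.2 ± 8.05 CPM in wild type and 1.24 ± 0.43 CPM in the knockout (SD, n = 3 each) and fell 11.3-fold (adjusted p = 0.0102). Kif18b had 2.26, 0.96 and 3.20 CPM in wild type and 0, 0.247 and 0 CPM in the knockout. That is 81 against 3 reads, a ratio of 23.0 with a 95% interval of 7.61 to 114 that covers counting error only. Kif18b passed with an adjusted p of 0.0308. The linker histone gene Hist1h1b fell 4.76-fold (adjusted p = 0.0252) as the single call among 30 tested histone genes (3.33% against 0.889% of all tested genes called lower, median -0.52). Of 29 tested tubulin and cytoskeleton genes 1 fell and 1 rose (6.9% called against 1.20% of all tested genes), with a median of -0.33. Stmn1, which destabilises microtubules, fell 4.54-fold, from 16.5, 5.93 and 18.8 CPM to 2.90, 2.97 and 3.22 CPM (adjusted p = 0.0183). Tuba1c, a tubulin gene, rose 1.81-fold (adjusted p = 0.0492).

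These calls rest on few libraries. Without WT_CCL4 4, WT_CCL4 6 or KO_CCL4 24 none of the mitosis genes passed (35, 35 and 40 could be tested), while 36, 17 and 12 fell without WT_CCL4 5, KO_CCL4 25 and KO_CCL4 15. The list's median stayed between -2.86 and -2.10 in these fits. In a fit of only the 6 libraries none of 36 tested mitosis genes passed (median -2.44), and limma-voom called 5 of 40. Of the 16 cell division, histone and cytoskeleton genes named with values or among the largest falls, all were lost without KO_CCL4 24 (adjusted p from 0.0809 to 0.162), 11 without WT_CCL4 4 (up to 0.176) and 11 without WT_CCL4 6 (up to 0.198). In the latter pair of fits Knstrn passed, and Kif18b, Psrc1, Parpbp and Cdkn3 were not tested for low counts. The main filter thus kept Kif18b, Psrc1, Parpbp and Cdkn3 through WT_CCL4 4 and 6, so these genes could hardly come out higher. Without KO_CCL4 25, Psrc1, Parpbp, Cdkn3 and Tuba1c were lost (up to 0.0882), without KO_CCL4 15 Cenpf, Psrc1, Parpbp and Cdkn3 (up to 0.0697), and without WT_CCL4 5 Tuba1c (0.0637).

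Many mitosis genes are known to share a promoter element of the letters TTTGAA or TTCGAA, the cell cycle homology region bound by the DREAM and MuvB complexes, and CCAAT boxes, bound by NF-Y. RefSeq promoter windows (GRCm38.p6, 250 bases before to 50 after the start, 1 per gene) were matched for 10932 tested genes and for 16 of the 18 called mitosis genes. TTTGAA or TTCGAA, searched on both strands, was found in 13 of these 16 windows (81.2%), against 14.2% of all 10932. CCAAT was found in 13 of 16 (81.2%) against 38.4%, and both kinds together in 11 of 16 (68.8%) against 5.89%. These shares are those of the whole list and not of its called members, since of the 34 tested mitosis genes with a window, called or not, 27 (79.4%) held TTTGAA or TTCGAA, 27 (79.4%) CCAAT and 24 (70.6%) both. TTTGAA or TTCGAA was found in 35 of 112 windows of all genes called lower (31.2%) and in 4 of 33 of those called higher (12.1%). A match of letters is a description and not a binding site. Cdc20, Ccnb2 and Ccnb1 are shown because they are called cell cycle genes whose windows differ in these letters. Given are 250 bases before and 20 after the start, on the gene's strand (chr4:118437324-118437593, chr9:70421535-70421804 and chr13:100786467-100786736, all minus strand), with TTTGAA and CCAAT in capitals.
Cdc20: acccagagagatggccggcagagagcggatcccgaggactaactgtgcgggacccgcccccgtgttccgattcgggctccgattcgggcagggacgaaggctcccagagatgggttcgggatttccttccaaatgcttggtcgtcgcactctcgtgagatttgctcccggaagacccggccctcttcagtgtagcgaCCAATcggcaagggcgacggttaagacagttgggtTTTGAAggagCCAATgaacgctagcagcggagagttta
Ccnb2: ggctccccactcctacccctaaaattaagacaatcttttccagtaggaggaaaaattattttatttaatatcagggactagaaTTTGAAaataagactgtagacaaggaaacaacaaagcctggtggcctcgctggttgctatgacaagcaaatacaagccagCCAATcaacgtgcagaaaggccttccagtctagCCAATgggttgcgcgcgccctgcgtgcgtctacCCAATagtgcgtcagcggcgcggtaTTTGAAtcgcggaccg
Ccnb1: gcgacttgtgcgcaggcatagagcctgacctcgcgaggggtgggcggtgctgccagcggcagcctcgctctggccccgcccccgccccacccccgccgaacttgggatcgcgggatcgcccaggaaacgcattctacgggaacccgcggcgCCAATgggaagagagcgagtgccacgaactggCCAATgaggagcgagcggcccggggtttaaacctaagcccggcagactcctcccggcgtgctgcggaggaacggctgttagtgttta
Cdc20 holds 1 TTTGAA and 2 CCAAT, Ccnb2 holds 2 TTTGAA and 3 CCAAT, and Ccnb1 holds 2 CCAAT in its window.

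**Figure D2:**
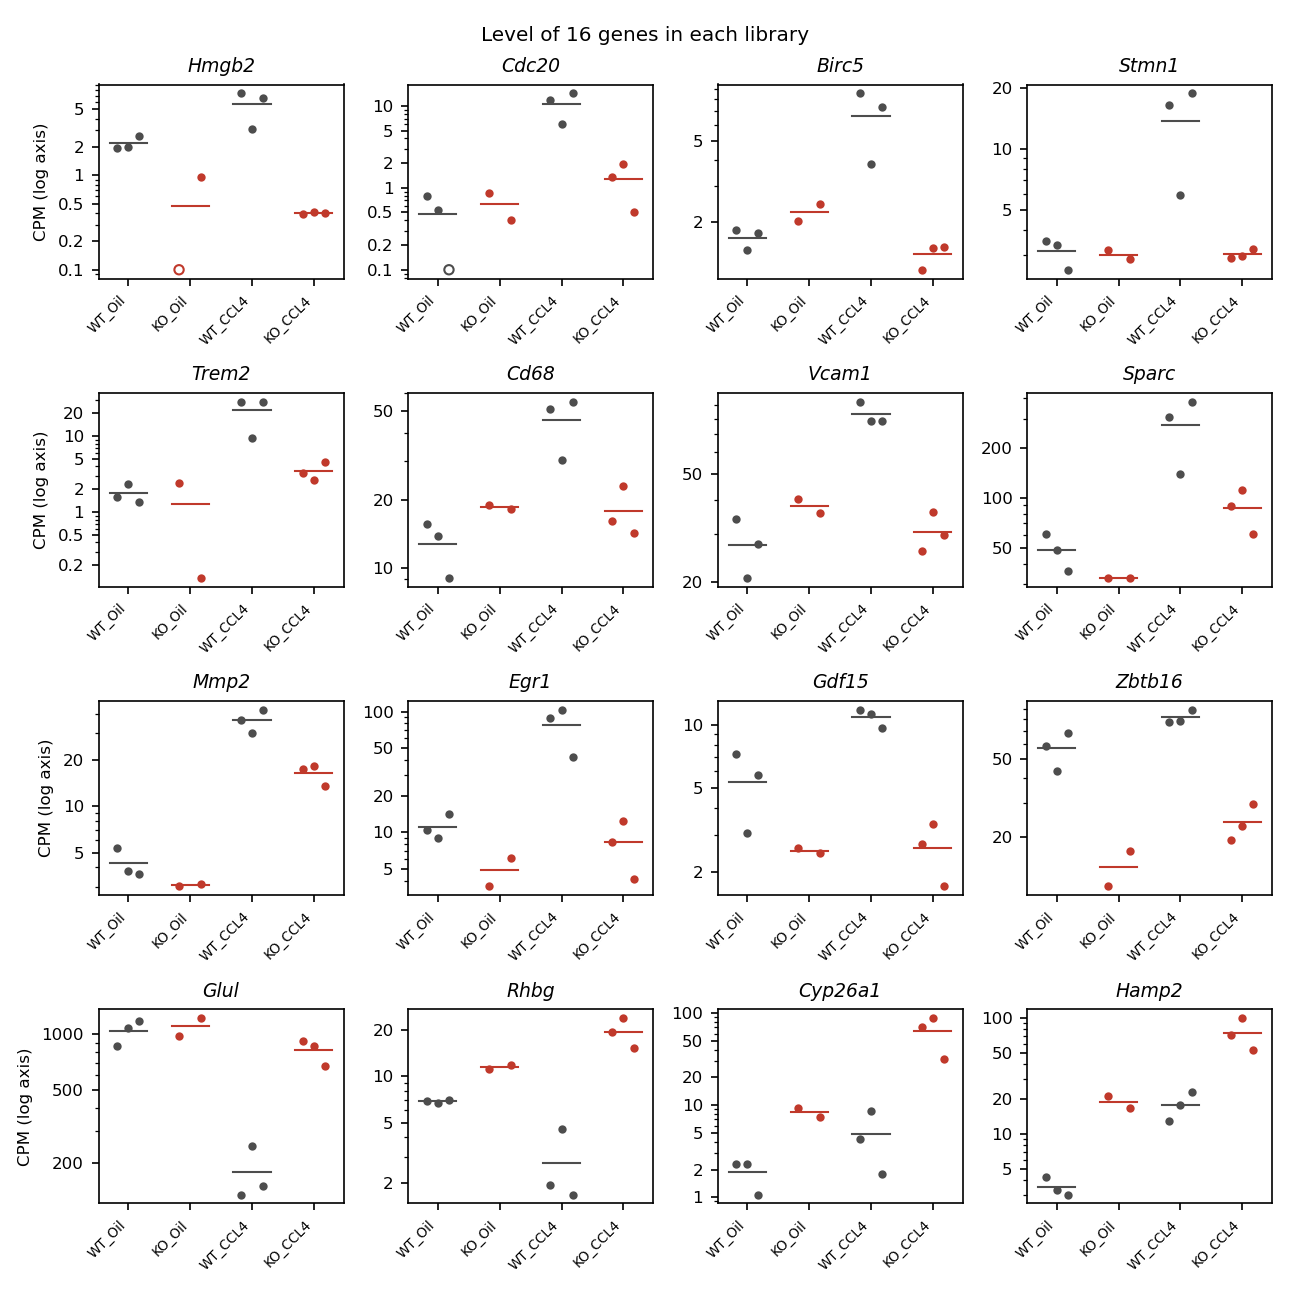
Level of 16 genes in CPM (log axis) in every library, with wild type in grey, knockout in red and the group mean as a bar; open circles at 0.1 stand for values below 0.1 CPM. In each of the 16 genes the KO_CCL4 and WT_CCL4 libraries do not overlap, with 12 genes lower and 4 (Glul, Rhbg, Cyp26a1 and Hamp2) higher in the knockout.

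Genes of DNA replication, which is completed before mitosis, gave no call. None of 41 tested members passed, 35 had values below 0 and the median log2 fold change was -0.52. The helicase subunit Mcm5 had 13.2, 2.70 and 12.6 CPM in wild type and 1.74, 3.63 and 0.604 CPM in the knockout, so that its groups overlapped (log2 -2.22, SE 0.62, adjusted p = 0.0972). Mcm2 (log2 -1.36, adjusted p = 0.111) and the ribonucleotide reductase subunit Rrm1 (log2 -0.84, adjusted p = 0.111) did not pass. Without WT_CCL4 5, 11 of the 41 passed as lower. Mki67, which encodes the proliferation antigen Ki-67, had 86.2, 10.6 and 52.9 CPM against 4.55, 12.5 and 2.72 CPM and narrowly missed the threshold (log2 -2.91, SE 0.66, adjusted p = 0.0556). KO_CCL4 25 lay above WT_CCL4 5 for this gene.

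Matrix genes were lower in part. Of 35 tested matrix protein genes 7 fell and none rose (20%), of 18 collagen genes 2 fell (11.1%), and of 20 metalloproteases and their inhibitors 4 fell (20%). Of all tested genes 0.889% were called lower. The median log2 fold changes of these lists were -0.98, -0.97 and -1.02. Eln, which encodes elastin, had 23.3, 10.3 and 23.6 CPM in wild type and 5.61, 5.36 and 4.73 CPM in the knockout and fell 3.64-fold (log2 SE 0.30, adjusted p = 0.0179). Sparc, a collagen-binding matrix protein, had 310, 139 and 383 CPM (309.9, 138.8 and 382.5) against 89.3, 112 and 60.7 CPM and fell 3.17-fold (adjusted p = 0.0369). The gap between the groups was small for Sparc, since WT_CCL4 5 lay near KO_CCL4 25. The proteoglycan gene Bgn fell 2.31-fold and the basement membrane gene Nid1 2.39-fold (adjusted p = 0.0195 and 0.0371), and Matn2, Spon2 and Fmod were the other calls.

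The gelatinase gene Mmp2 (chromosome 8, 92827290 to 92853420, plus strand) had 36.8, 30.0 and 42.7 CPM in wild type and 17.6, 18.4 and 13.7 CPM in the knockout and fell 2.20-fold (log2 -1.14, SE 0.19, adjusted p = 0.0179). Its knockout level stayed above that after oil, which was 3.07 ± 0.08 CPM (SD, n = 2) in knockout and 4.25 ± 0.95 CPM (n = 3) in wild-type liver. Mmp14, a membrane protease that activates the MMP2 precursor, fell 1.85-fold (adjusted p = 0.0252), the inhibitor gene Timp2 2.11-fold (adjusted p = 0.0330) and the procollagen peptidase gene Adamts2 2.99-fold (adjusted p = 0.0382). Type VI collagen, a microfibril of the cell surface, gave both collagen calls. Col6a1 fell 2.12-fold and Col6a3 3.72-fold (adjusted p = 0.0413 and 0.0464). Col1a1, the main chain of scar collagen, had 368, 80.3 and 443 CPM against 61.8, 55.6 and 16 CPM and did not pass (log2 -2.74, SE 0.66, adjusted p = 0.0666), though its groups did not overlap. The authors' deposited table gives Col1a1 a log2 ratio of -2.26 and an adjusted p of 0.00354.

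Genes of stellate cells and myofibroblasts, the makers of this matrix, fell in 3 of 32 cases (9.38% against 0.889% of all tested genes), with a median of -0.62. Vim, an intermediate filament gene, fell 2.75-fold, Ltbp2, which encodes a protein of elastic microfibrils, 4.50-fold, and Islr 2.16-fold (adjusted p = 0.0369, 0.0445 and 0.0452). Acta2, a smooth muscle actin gene of activated stellate cells, had 6.16, 4.80 and 9.89 CPM against 2.71, 5.03 and 1.01 CPM, and Timp1, a metalloprotease inhibitor gene, had 1.26, 1.13 and 1.98 CPM against 1.84, 1.48 and 0.503 CPM. Neither passed (log2 -1.22 and -0.17, adjusted p = 0.234 and 0.929), and the groups overlapped in both. The stellate cell markers Lrat and Reln were at 33.2 ± 8.21 and 291 ± 38.1 CPM in wild type and at 41.2 ± 14.8 and 218 ± 53.1 CPM in the knockout (SD, n = 3 each), without passing. The markers Des and Pdgfrb went from 8.03 ± 0.49 and 43.4 ± 9.76 CPM to 4.74 ± 0.97 and 32.2 ± 7.97 CPM, also without passing. Log2 fold changes were 0.31 for Lrat, -0.41 for Reln, -0.76 for Des and -0.43 for Pdgfrb, and the groups of Des did not overlap. All 13 matrix and stellate cell genes called and named with a fold or value were lost without WT_CCL4 4 (adjusted p up to 0.167), WT_CCL4 6 (up to 0.238) or KO_CCL4 24 (up to 0.155). In a fit of only the 6 libraries none of these 13 passed, and with a mean of at least 5 CPM required or with limma-voom neither collagen call was made. Without KO_CCL4 25, 7 of them were lost (up to 0.0697), namely Col6a1, Col6a3, Timp2, Adamts2, Vim, Ltbp2 and Islr. Without KO_CCL4 15, 8 were lost (up to 0.0781), namely Col6a1, Col6a3, Sparc, Nid1, Adamts2, Vim, Ltbp2 and Islr.

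**Figure D3:**
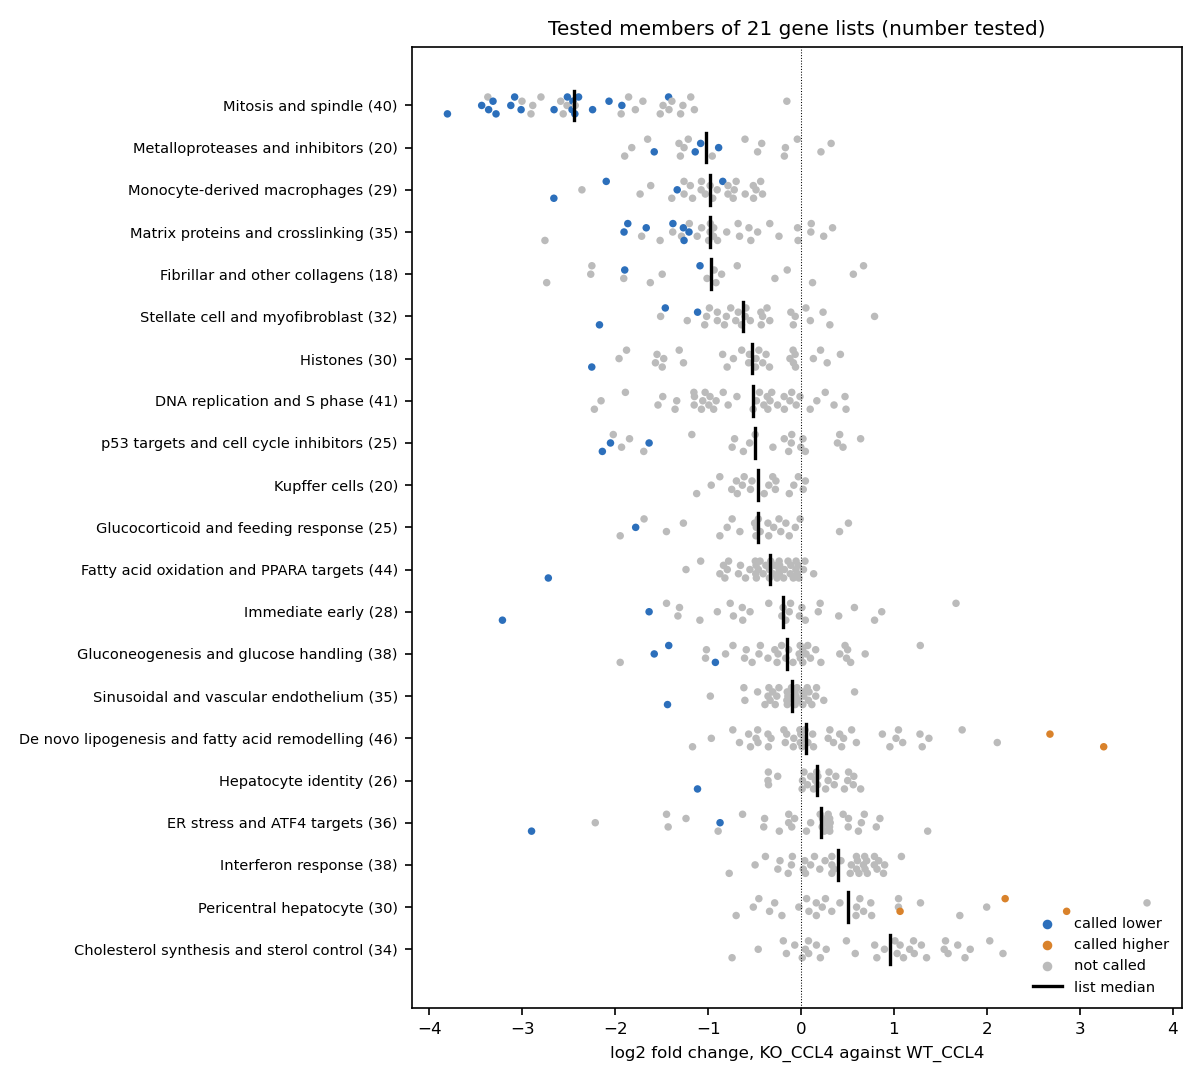
Points are the log2 fold changes (x axis) of the tested members of 21 gene lists (rows), in blue where called lower, orange where called higher and grey where not called, and bars are list medians. The mitosis list has its median at -2.44 and the cholesterol synthesis list at 0.96 with no gene called; some genes stand in more than 1 list.

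Genes of the list for monocyte-derived macrophages, the cells that enter injured liver, fell in part. Of 29 tested members 4 fell (13.8% against 0.889% of all tested genes), none rose and all 29 had values below 0, with a median of -0.98. Their summed level was 2982, 2410 and 3505 CPM in wild type and 1470, 1745 and 1748 CPM in the knockout. After oil it was 1998, 2116 and 1942 CPM in wild-type and 1324 and 1226 CPM in knockout liver. The sum is thus not particular to cells that enter after injury, and it was also lower in the knockout without injury. Its part in the lower mitosis and matrix genes was not tested. Trem2 (chromosome 17, 48346400 to 48354147, plus strand), a lipid receptor of such macrophages, had 28.5, 9.42 and 27.8 CPM in wild type and 3.29, 2.64 and 4.53 CPM in the knockout and fell 6.32-fold (log2 -2.66, SE 0.50, adjusted p = 0.0300). Lgals3, which encodes galectin-3, had 61.9, 20.3 and 78.5 CPM against 10.2, 13.5 and 13.9 CPM and fell 4.28-fold (adjusted p = 0.0300). WT_CCL4 5 was the lowest wild-type library in both, and no groups overlapped. The lysosomal genes Cd68 and Ctsd fell 2.52-fold and 1.79-fold (adjusted p = 0.0330 and 0.0428); the Ctsd locus overlaps the gene model Gm49369 on its own strand. Gpnmb, a gene of lipid-laden macrophages, went from 172 ± 110 to 33.5 ± 5.43 CPM (SD, n = 3 each) without passing (log2 -2.36, adjusted p = 0.107).

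Genes of Kupffer cells, the macrophages that live in the sinusoids, gave no call among 20 tested members, with a median of -0.46. Of these, 18 had values below 0, and with upper quartile scaling 3 were called lower. Their summed level was also lower without overlap, at 1465, 1625 and 1386 CPM in wild type and 1084, 1288 and 965 CPM in the knockout. After oil it was 1474, 1276 and 1191 CPM in wild-type and 1679 and 1482 CPM in knockout liver. The members with the lowest p were the heme oxygenase gene Hmox1 (log2 -1.12, adjusted p = 0.0547), the secreted scavenger protein gene Cd5l (log2 -0.97, adjusted p = 0.0596) and the complement receptor gene Vsig4 (log2 -0.75, adjusted p = 0.0622). Adgre1, which encodes the macrophage antigen F4/80, had 71.2, 48.3 and 73.8 CPM against 32.5, 52.8 and 20.02 CPM, with overlapping groups (adjusted p = 0.190). Il1b, which encodes the inflammatory cytokine interleukin-1 beta, moved the other way, from 0.943, 0.698 and 0.753 CPM to 4.06, 8.24 and 2.62 CPM. It rose 6.13-fold (log2 SE 0.42, adjusted p = 0.0179) and was the single call among 12 neutrophil genes and among 22 chemokine and cytokine genes (medians -0.50 and 0.02).

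Vcam1 (chromosome 3, 116109948 to 116129688, minus strand), an adhesion molecule for leukocytes, was the single call among 35 tested genes of sinusoidal and vascular endothelium (2.86% against 0.889% of all tested genes, median -0.10). It had 92.5, 78.4 and 78.2 CPM in wild type and 25.9, 36.3 and 29.8 CPM in the knockout and fell 2.71-fold (log2 -1.44, SE 0.19, adjusted p = 0.00639). WT_CCL4 5 did not stand apart for Vcam1. The gene model Gm43109 overlaps Vcam1 on the opposite strand and was also called lower. Without WT_CCL4 4 or WT_CCL4 6 the calls of Trem2, Lgals3, Cd68, Ctsd and Il1b were lost (adjusted p up to 0.140 and 0.228), and without KO_CCL4 24 these 5 and Vcam1 were lost (0.0619 to 0.170). Trem2, Lgals3 and Ctsd were also lost without KO_CCL4 25 (up to 0.0743), and Cd68 without KO_CCL4 15 (0.0590). Trem2, Lgals3, Cd68, Ctsd and Il1b did not pass in a fit of only the 6 libraries, in which Vcam1 did.

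Among stress and immediate early genes, Egr1 showed the lowest p. Egr1 (ENSMUSG00000038418, chromosome 18, 34859822 to 34864984, plus strand), a transcription factor induced within minutes by growth signals, had 88.1, 104 and 41.9 CPM in wild type and 8.32, 12.5 and 4.12 CPM in the knockout. It fell 9.27-fold (log2 -3.21, SE 0.40, adjusted p = 0.00419) to a level near that after oil (11.2 ± 2.65 CPM, SD, n = 3, in wild-type and 4.85 ± 1.79 CPM, n = 2, in knockout liver). With Btg2, an antiproliferative gene, it was 1 of 2 calls among 28 immediate early genes (7.14% against 0.889% of all tested genes), which had a median of -0.20. Of 25 p53 targets and cell cycle inhibitors 3 fell (12% against 0.889% of all tested genes), with a list median of -0.49. They were the stress hormone gene Gdf15 (4.14-fold, adjusted p = 0.0172), Btg2 (3.10-fold, adjusted p = 0.0315) and the Akt repressor gene Phlda3 (4.40-fold, adjusted p = 0.0454). Gdf15 had 11.8, 11.3 and 9.61 CPM against 2.71, 3.38 and 1.71 CPM. The cell cycle inhibitor gene Cdkn1a had 20.4, 23.7 and 30.3 CPM against 2.13, 0.989 and 15.5 CPM and did not pass (log2 -2.02, SE 0.73, adjusted p = 0.185), as KO_CCL4 15 lay far above KO_CCL4 24 and 25.

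Zbtb16, a glucocorticoid-induced transcription factor, had 77.2, 78.8 and 89.4 CPM in wild type and 19.2, 22.7 and 29.6 CPM in the knockout and fell 3.43-fold (log2 -1.78, SE 0.21, adjusted p = 0.00419). It was the single call among 25 glucocorticoid and feeding genes (median -0.46). Egr1 and Zbtb16 passed whichever of the 6 libraries was left out, at adjusted p values reaching 0.0452 and 0.0331. Gdf15, Btg2 and Phlda3 were each lost without WT_CCL4 4 (up to 0.170), WT_CCL4 6 (up to 0.211) or KO_CCL4 24 (up to 0.148), Btg2 and Phlda3 without KO_CCL4 15 (up to 0.0739), and Phlda3 without KO_CCL4 25 (0.0876).

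Pericentral hepatocyte genes, those of the cells nearest the central vein, rose in part. Of 30 tested members 3 rose and none fell (10% against 0.308% of all genes called higher), with a median log2 fold change of 0.51. Glul (ENSMUSG00000026473, chromosome 1, 153899943 to 153909723, plus strand), the glutamine synthetase gene of the last cells before the vein, had 135, 249 and 151 CPM in wild type and 916, 866 and 672 CPM in the knockout. It rose 4.59-fold (log2 2.20, SE 0.25, adjusted p = 0.00309). The knockout libraries came near the level after oil, 1041 ± 157 CPM (SD, n = 3) in wild-type and 1104 ± 171 CPM (n = 2) in knockout liver, while the wild-type libraries after CCl4 lay far below. Teddm2 on the opposite strand and Mir8114 on the same strand overlap Glul and were called with it, so reads of these 3 genes may be shared.

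Rhbg (chromosome 3, 88242873 to 88254709, minus strand), an ammonium transporter of the same cells, had 1.95, 4.54 and 1.70 CPM in wild type and 19.6, 24.1 and 15.3 CPM in the knockout. It rose 7.25-fold (log2 2.86, SE 0.31, adjusted p = 0.00251). After oil Rhbg was at 6.88 ± 0.16 CPM (n = 3) in wild-type and 11.5 ± 0.44 CPM (n = 2) in knockout liver, so the knockout level after CCl4 stood above both. The gene model Gm38392 overlaps it on the same strand and was called too. Lgr5, a receptor gene of the Wnt pathway, had 4.40, 6.72 and 4.99 CPM against 13.2, 10.6 and 9.76 CPM and rose 2.09-fold (adjusted p = 0.0357). Cyp2e1, which activates CCl4, had 2777, 5454 and 3221 CPM against 5751, 4801 and 8846 CPM, with overlapping groups (log2 0.76, SE 0.30, adjusted p = 0.219). The glutamate transporter gene Slc1a2, named for its size after its values were seen, had 1.95, 43.1 and 1.32 CPM against 202, 199 and 207 CPM and did not pass (log2 3.72, SE 0.92, adjusted p = 0.0698), with WT_CCL4 5 far from the other wild-type libraries. Rhbg, Glul and Teddm2 passed whichever library was left out. Lgr5 was lost without WT_CCL4 4, WT_CCL4 6, KO_CCL4 24 or KO_CCL4 25 (adjusted p = 0.167, 0.195, 0.149 and 0.0537). Of 27 tested periportal genes none passed (median 0.05).

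The largest rise among called genes named by rule was that of Cyp26a1 (ENSMUSG00000024987, chromosome 19, 37697807 to 37701528, plus strand), which encodes the enzyme that breaks down retinoic acid. It had 4.28, 8.64 and 1.79 CPM in wild type and 71.3, 88.3 and 31.9 CPM in the knockout and rose 12.99-fold (log2 3.70, SE 0.48, adjusted p = 0.00549). The groups did not overlap, and all knockout libraries after CCl4 were above those after oil (8.40 ± 1.31 CPM, SD, n = 2). It was the single call among 19 genes of retinoid storage and breakdown, with a median of 0.20. Cyp26a1 is known to be induced by retinoic acid through receptor elements in its promoter, and its promoter is shown for this reason, with the match, on the opposite strand, to 2 copies of AGTTCA spaced by 5 bases in capitals (RefSeq, GRCm38.p6, chr19:37697558-37697827, plus strand, 250 bases before and 20 after the start).
Cyp26a1: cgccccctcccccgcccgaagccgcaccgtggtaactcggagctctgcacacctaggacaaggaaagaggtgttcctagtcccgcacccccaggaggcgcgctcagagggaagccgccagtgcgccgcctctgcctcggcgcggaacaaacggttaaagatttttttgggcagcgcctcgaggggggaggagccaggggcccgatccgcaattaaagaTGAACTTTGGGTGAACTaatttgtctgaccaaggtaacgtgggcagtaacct
The pattern was found in 2 of 10932 windows, searched on both strands. Cyp26a1 passed whichever library was left out, with an adjusted p of up to 0.0480.

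Hamp2, a relative of the hepcidin gene, had 13.01, 17.7 and 22.9 CPM in wild type and 70.9, 99.7 and 52.8 CPM in the knockout and rose 4.19-fold (log2 2.07, SE 0.25, adjusted p = 0.00419). It passed whichever library was left out (adjusted p up to 0.0307). The gene model Gm44662 overlaps it on the opposite strand and was called too. Hamp2 and Orm3, an acid glycoprotein gene, were the 2 calls among 26 acute phase genes (7.69% against 0.308% of all tested genes called higher, median -0.06). Orm3 averaged 0.533 ± 0.114 CPM in wild type and 4.53 ± 1.38 CPM in the knockout (SD, n = 3 each) and rose 8.43-fold (adjusted p = 0.0492). Of 19 iron and hepcidin genes Hamp2 rose and Id1 fell (10.5% called against 1.20% of all tested genes), with a median of 0.001. Id1, a target of BMP signals, fell 3.88-fold (adjusted p = 0.0393). Orm3 was lost under each of the 6 libraries left out (adjusted p up to 0.204), and Id1 without WT_CCL4 4, WT_CCL4 6, KO_CCL4 24 or KO_CCL4 25 (up to 0.204).

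A few genes of lipid synthesis rose, with the highest levels in KO_CCL4 24 and 25. Of 46 tested genes of lipogenesis and fatty acid remodelling 2 rose (4.35% against 0.308% of all tested genes), with a median of 0.06. Fasn, the fatty acid synthase gene, had 189, 138 and 235 CPM in wild type and 970, 2364 and 272 CPM in the knockout and rose 6.41-fold (log2 2.68, SE 0.56, adjusted p = 0.0428). Thrsp, which promotes lipogenesis, had 17.3, 10.4 and 18.1 CPM against 70.1, 331 and 36.3 CPM and rose 9.56-fold (adjusted p = 0.0452). In both the groups did not overlap and KO_CCL4 15 was the lowest knockout library, close to wild type for Fasn and between WT_CCL4 6 and KO_CCL4 24 for Thrsp. Nudt7, a peroxisomal hydrolase gene of the male-biased list, rose 3.21-fold (adjusted p = 0.0482), and Cyp4a31, a fatty acid hydroxylase gene, fell from a mean of 75.8 ± 17.8 CPM to one of 11.6 ± 12.2 CPM (SD, n = 3 each, log2 -2.72, adjusted p = 0.0365). The calls of Fasn, Thrsp, Cyp4a31 and Nudt7 were lost without WT_CCL4 4 (adjusted p up to 0.167), WT_CCL4 6 (up to 0.238), KO_CCL4 24 (up to 0.149) or KO_CCL4 25 (up to 0.0806), and without WT_CCL4 5 those of Fasn, Thrsp and Nudt7 (up to 0.0658). None of these 4 passed in a fit of only the 6 libraries or with a mean of at least 5 CPM required.

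None of 34 tested cholesterol synthesis genes passed, although 29 had values above 0 and the median was 0.96. Summed over the list the level was 3269, 3112 and 3685 CPM in wild type and 5135, 7640 and 3186 CPM in the knockout, so KO_CCL4 15 lay within the wild-type range. Hmgcs1, Fdps and Msmo1 had the lowest p (log2 1.76, 2.17 and 1.54, adjusted p = 0.0817, 0.0820 and 0.0883). Without KO_CCL4 15, 18 of these genes passed as higher and 1 as lower. Fatty acid oxidation and other PPARA targets gave 1 call lower, Cyp4a31, among 44 (2.27% against 0.889% of all tested genes, median -0.33), with 41 values below 0. Ehhadh, an enzyme of peroxisomal beta-oxidation, had 1017, 2299 and 984 CPM against 351, 352 and 1331 CPM (log2 -1.08, adjusted p = 0.298), with KO_CCL4 15 among the wild-type values. Without KO_CCL4 15, 8 of the 44 passed as lower, and with that library as the only knockout library the medians of the cholesterol and PPARA lists turned to -0.18 and 0.20. Summed over the PPARA list the level was 15560, 14590 and 33150 CPM in KO_CCL4 24, 25 and 15. The knockout libraries after oil, KO_Oil 11 and 12, also carry S in their titles. They had 11290 and 14030 CPM for the PPARA list and 3980 and 3990 CPM for the cholesterol list. Within KO_CCL4, whether the difference of 15 from 24 and 25 follows the letter or the animal cannot be told apart, and its cause was not tested.

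**Figure D4:**
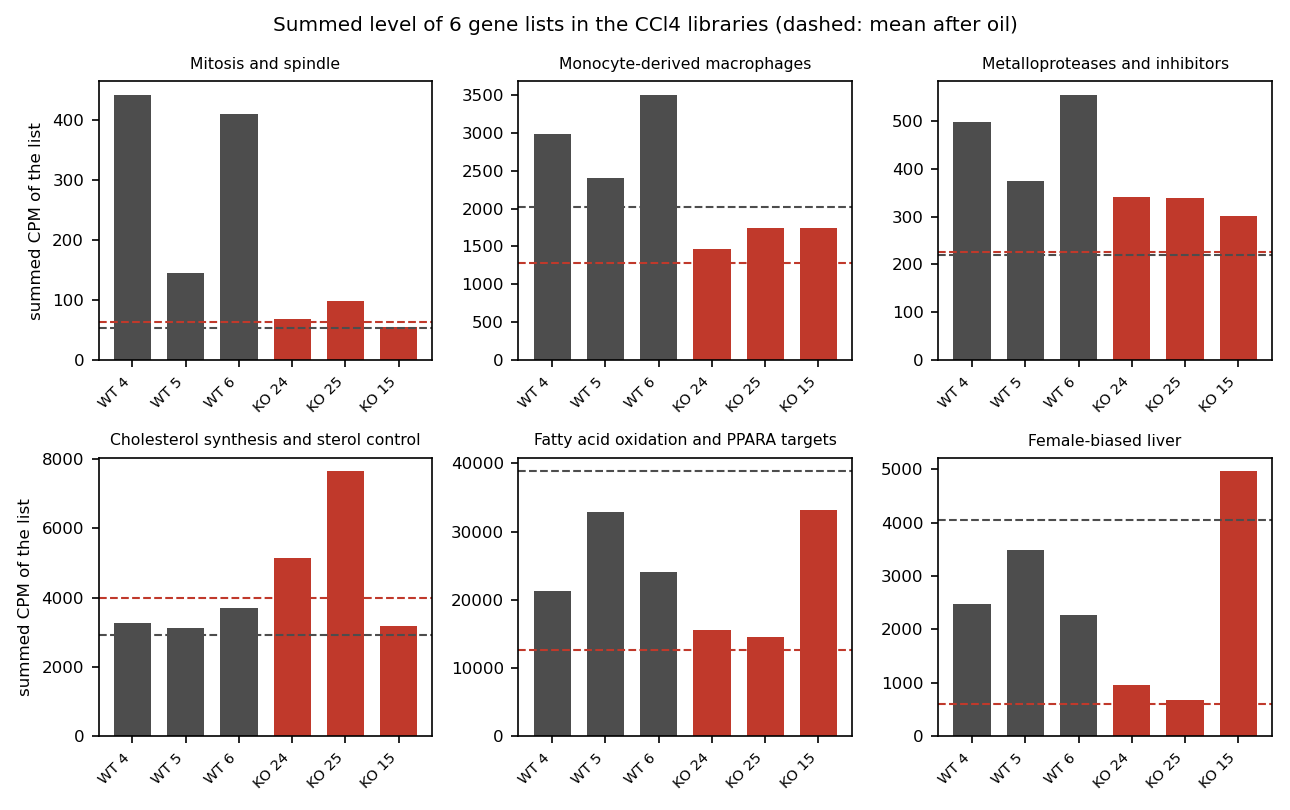
Bars give the CPM summed over the tested members of 6 gene lists in the WT_CCL4 (grey) and KO_CCL4 (red) libraries, and dashed lines the mean of the oil libraries of the same genotype. KO_CCL4 15 stands with 24 and 25 for the mitosis list (55.2 to 98.6 CPM) and apart from them for the female-biased list (4960 CPM against 959 and 681 CPM).

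Female-biased genes differed between the knockout libraries. The summed level of 22 tested female-biased genes was 2473, 3480 and 2266 CPM in wild type and 959, 681 and 4960 CPM in KO_CCL4 24, 25 and 15. After oil it was 4519, 2996 and 4609 CPM in wild type and 341.5 and 856.6 CPM in KO_Oil 11 and 12. The list had 1 call after CCl4. That call was Cyp2b9, a cytochrome P450 with close relatives, which had 2.39, 0.262 and 3.77 CPM against 25.2, 12.3 and 25.1 CPM and rose 9.73-fold (adjusted p = 0.0179). Of 25 male-biased genes 2 rose (8% against 0.308% of all tested genes called higher), with a median of 0.41. They were Nudt7 and the urinary protein gene Mup3, which rose 2.56-fold (adjusted p = 0.0358). The summed level of the male-biased list was 6180, 7147 and 5348 CPM in wild type and 10270, 7485 and 12190 CPM in KO_CCL4 24, 25 and 15. The groups did not overlap, and KO_CCL4 15 was the highest CCl4 library for the male-biased as for the female-biased list. After oil the male-biased sum was 17800, 17650 and 18000 CPM in wild type and 29560 and 21320 CPM in KO_Oil 11 and 12, above all CCl4 libraries. Since Mup genes are so alike that reads may be assigned to the wrong copy, the value of any 1 of them is uncertain. Mup21 had 18.8 ± 7.89 and 19.4 ± 6.82 CPM (SD, n = 3 each, log2 0.04, adjusted p = 0.968). Cyp2b9 and Mup3 were lost without WT_CCL4 4 or KO_CCL4 24 (adjusted p up to 0.114 and 0.149), and Mup3 without WT_CCL4 6 (0.208).

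Glucose and amino acid genes gave a few calls. Of 38 tested genes of gluconeogenesis and glucose handling 3 fell (7.89% against 0.889% of all tested genes), with a median of -0.15. Igfbp2, which encodes a binding protein of insulin-like growth factors, had 850, 900 and 931 CPM (850.5, 899.7 and 930.7) against 172, 295 and 430 CPM (172.3, 295.3 and 429.6) and fell 2.99-fold (adjusted p = 0.0368). The mitochondrial PEP carboxykinase gene Pck2 fell 2.68-fold and the pyruvate kinase gene Pkm 1.89-fold (adjusted p = 0.0338 and 0.0488). G6pc, the glucose-6-phosphatase gene, did not pass (log2 0.49, adjusted p = 0.643). Of 36 genes of ER stress and ATF4 targets Asns, the asparagine synthetase gene, fell 7.46-fold (adjusted p = 0.0401), with means of 20.3 ± 3.58 and 2.73 ± 1.6 CPM (SD, n = 3 each), and Herpud1, a gene of protein quality control in the ER, fell 1.83-fold (adjusted p = 0.0370). The median of that list was 0.22, and 5.56% of it was called lower, against 0.889% of all tested genes.

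Of 26 hepatocyte identity genes 1 fell, the transcription factor gene Foxa3, from 97.5, 89.5 and 114 CPM to 37.2, 53 and 48.6 CPM (2.16-fold, adjusted p = 0.0172), with a list median of 0.17. Of 16 fetal liver and injury genes 2 fell (12.5% against 0.889% of all tested genes), with a median of -0.67. Ly6d fell 3.27-fold and the growth factor adaptor gene Grb10 2.02-fold (adjusted p = 0.0330 and 0.0431). Afp had 23.8, 2.53 and 22.5 CPM against 6.67, 6.76 and 6.44 CPM and did not pass (adjusted p = 0.264). S100g, a calcium-binding protein gene, fell 12.8-fold (adjusted p = 0.0175), with means of 2.95 ± 0.90 and 0.219 ± 0.064 CPM (SD, n = 3 each); Ctps2 overlaps it on the opposite strand. Among the largest rises were the acetyltransferase family gene Nat8f5 (4.36-fold, adjusted p = 0.00419), Pkdrej (4.47-fold, adjusted p = 0.0221) and the receptor gene Vmn1r90 (4.63-fold, adjusted p = 0.0308). Nat8f5 passed whichever library was left out.

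The 9 metabolic, hepatocyte and other falls of Pck2, Igfbp2, Pkm, Asns, Herpud1, Foxa3, Ly6d, Grb10 and S100g were all lost without WT_CCL4 6 (adjusted p up to 0.238) or KO_CCL4 24 (up to 0.181), and all but S100g without WT_CCL4 4 (up to 0.170). Pck2, Igfbp2, Asns, Ly6d and Grb10 were lost without KO_CCL4 25 (up to 0.0816), and Pkm and Grb10 without KO_CCL4 15 (up to 0.0835). Pkdrej and Vmn1r90 were lost without WT_CCL4 4, WT_CCL4 6 or KO_CCL4 24 (up to 0.167).

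Several other lists gave no call. Of 38 tested interferon response genes none passed, 30 had values above 0 and the median was 0.39, with the RNA sensor gene Ifih1 at 37.7 ± 6.41 and 61.5 ± 10.7 CPM (SD, n = 3 each, adjusted p = 0.112) and the transcription factor gene Irf1 at a log2 difference of 0.69 (adjusted p = 0.148). None of 30 circadian clock genes passed (median 0.17), and the clock gene Per3 had 23.1, 13.1 and 24.8 CPM against 32.7, 59.0 and 16.3 CPM (adjusted p = 0.275). The clock genes Bhlhe40 and Dbp were highest in KO_CCL4 25 and did not pass (log2 1.42 and 1.35, adjusted p = 0.106 each). No call was made among 21 T and NK cell genes, 18 B and plasma cell genes, 19 MHC class II and dendritic cell genes, 15 bile duct genes, 15 mesothelium and adipose genes and 40 NRF2 and glutathione genes, with medians of -0.19, -0.25, -0.13, 0.04, 0.44 and -0.01. Cyp7a1, the rate-limiting enzyme of bile acid synthesis, had 346, 253 and 206 CPM against 124, 173 and 365 CPM (log2 -0.28, adjusted p = 0.795).

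In uninjured liver of the same genotypes 694 genes passed (4.11% of those tested). These libraries are not those of the CCl4 comparison, but both comparisons come from 1 fit of all 11 libraries. Each gene's estimate of spread is therefore shared, and the overlap of calls is not one between independent comparisons. Of the genes called after CCl4, 30 were called after oil as well, which is 14.9% of the CCl4 calls and 4.32% of the oil calls, and 27 of them went the same way, 14 higher and 13 lower in the knockout. Zbtb16 fell by 2.004 on the log2 scale after oil beside 1.78 after CCl4. Hamp2 rose with log2 fold changes of 2.42 after oil and 2.07 after CCl4, Thrsp with 3.54 and 3.26, and Mmp14 fell by 0.92 and 0.89. Of other genes named above, Orm3 had log2 fold changes of 3.24 after oil and 3.075 after CCl4, Pkdrej 2.15 and 2.16, and Spon2 -2.49 and -1.27. Tlr12, Inhbe and Gm43109 were called in opposite directions. The difference between the genotype effects after CCl4 and after oil passed for 17 genes (0.101% of those tested), 6 of which are among the 202.

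**Figure D5:**
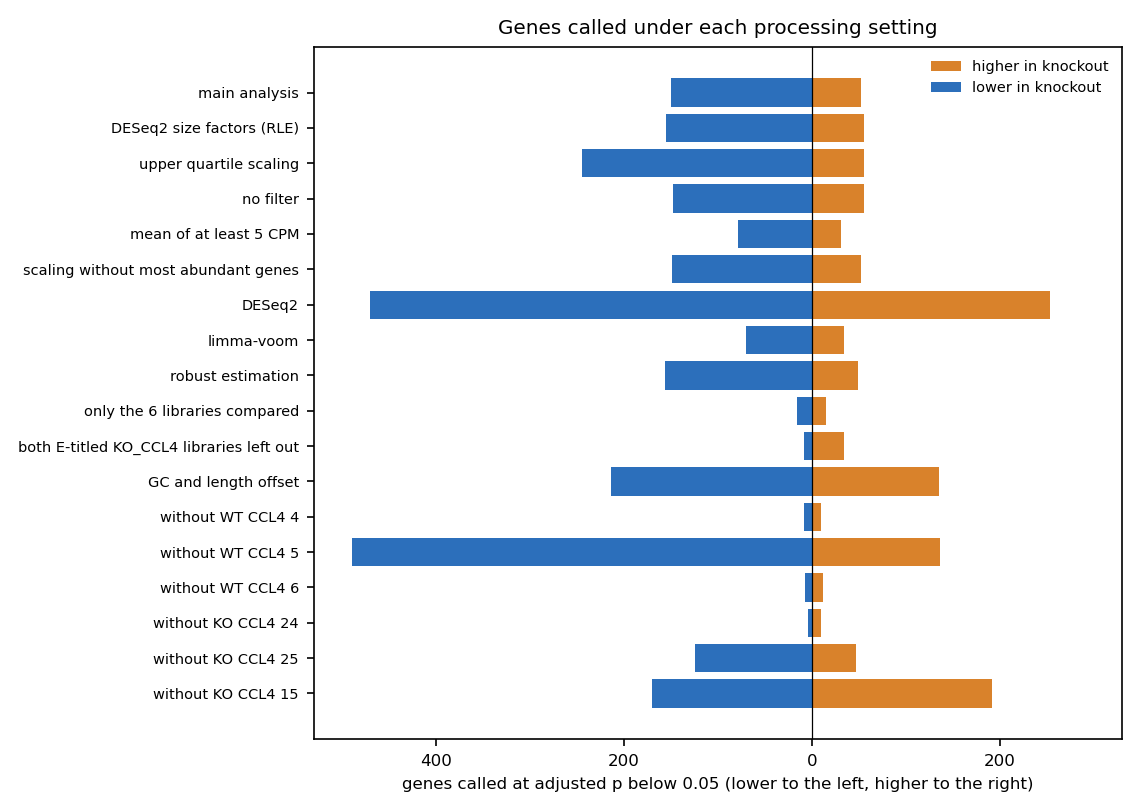
Bars give the number of genes called higher (orange, right) and lower (blue, left) in the knockout under each processing setting. The main analysis has 52 and 150, and leaving out a single library gives from 14 calls in all (without KO_CCL4 24) to 625 (without WT_CCL4 5).

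The number of calls depended on single libraries. It was 18 without WT_CCL4 4, 19 without WT_CCL4 6, 14 without KO_CCL4 24 and 171 without KO_CCL4 25, but 625 without WT_CCL4 5 and 362 without KO_CCL4 15. Of 67 called genes named by rule, 8 passed whichever library was left out, namely Cyp26a1, Rhbg, Glul, Nat8f5, Teddm2, Zbtb16, Egr1 and Hamp2. Cyp26a1, Zbtb16 and Hamp2 did not pass without both E-titled libraries, a fit that leaves KO_CCL4 15 alone in its group. No named called gene changed direction under the 17 other settings in which it could be tested. With libraries left out this could hardly come out otherwise, since the groups of all 202 called genes did not overlap. In a fit of only the 6 libraries 50 of the 65 that could be tested were lost, with limma-voom 34 of 67, without both E-titled libraries 61 of 67, and with a mean of at least 5 CPM required 15 of 48. With an offset for GC content and length, chosen after seeing the data, 38.7% of 349 calls were higher in the knockout, against 25.7% of the 202.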

How the data were processed

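Mouse livers were frozen in liquid nitrogen and a stranded total RNA kit served for the libraries, per the labels' protocols. The series' design text instead names capped RNA, sequenced on an Illumina HiSeq instrument. The tools Bowtie and DESeq2 and the builds mm10 and GRCm38 are named without versions, per the submitters' processing notes. Per the column descriptions in the file headers, the authors deposited raw counts per gene, where 1 base of overlap with a gene sufficed and read pairs counted once; whether strand was used was not given, so overlapping genes may share reads. FPKM values in the same deposited table were not used in any result. From the deposited log2 ratios, printed values carry the sign of knockout over wild type, and the deposited score was turned back into the adjusted p it encodes (10 times its negative log10). The authors listed 30438 genes under 10 counts and 26 above 50000 counts apart; these were not analysed here. The symbol was blank for 2096 genes, and 2069 were named from a reference table by identifier.

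Differential expression was computed from the counts by edgeR 4.0.16 under R 4.3.3 (quasi-likelihood, TMM scaling, filterByExpr by group with minimum count 10 and total 15) in 1 fit of all 11 libraries as 4 group means, with Benjamini-Hochberg adjustment over 16866 tested genes. The standard error is the log2 fold change over the square root of F. CPM values use the library sizes after TMM scaling. The gene lists are from textbook knowledge, and members, lists and the naming rule were chosen with earlier results of these data known. The rule took Hmgb1, Hmgb2 and Hmgb3, the top 12 called genes by log2 fold change in each direction (groups not overlapping, a mean of 1 CPM or more, numbered gene models, pseudogenes and Riken clones left out), up to 4 called members per list of lowest p, up to 3 members of lists described without a call, and 16 fixed genes. Alternatives were other scalings and filters, DESeq2 1.42.0, limma-voom (limma 3.58.1), robust estimation, fewer libraries and a GC and length offset. Replicate libraries differed by more than sampling noise, so none was counted as a duplicate. Counts of 0 or few limit a gene to the sampling of reads, and 1 read was worth about 0.1 CPM.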

Additional observations from a re-analysis of the deposited data

Results flagged for a closer look

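In 6 of the genes called after CCl4 the genotype difference after CCl4 also differed from that after oil, by the interaction term of the same fit (edgeR quasi-likelihood test, Benjamini-Hochberg adjustment). They were singled out after their values were seen. Tlr12, which encodes a Toll-like receptor, was higher in the knockout after CCl4 (12.3 against 5.81 CPM, log2 1.09) and lower after oil (9.30 against 20.1 CPM, log2 -1.11), an interaction of 2.20 on the log2 scale (SE 0.26, adjusted p = 0.0159). Inhbe, which encodes the hepatokine subunit activin E, showed the same pattern, with log2 fold changes of 0.96 after CCl4 and -1.02 after oil and an interaction of 1.98 (SE 0.26, adjusted p = 0.0159). Vcam1 was lower in the knockout after CCl4 (log2 -1.44) and not called after oil (log2 0.48, adjusted p = 0.222), an interaction of -1.92 (adjusted p = 0.0259). The overlapping gene model Gm43109 had an interaction of -2.54 (adjusted p = 0.0439). Teddm2 and Mir8114, at the Glul locus, had interactions of 2.04 and 2.08 (adjusted p = 0.0276 and 0.0281), with log2 fold changes near 0 after oil (0.03 and 0.02). Both overlap Glul and each other and may share reads. Glul itself was not among the 6, so its interaction did not pass.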

How the results depend on the processing

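With each of the 6 libraries left out, the calls ranged from 14 to 625, those higher from 10 to 192 and those lower from 4 to 489, and the log2 fold change of Hmgb2 in knockout against wild type after CCl4 from -4.10 to -3.58. Upper quartile scaling gave 245 lower, with 18.3% of its calls higher; a mean of at least 5 CPM 110 calls (31 higher, 79 lower); DESeq2 723 (253 and 470); limma-voom 104 (34 and 70). Fits of only the 6 libraries gave 31 (15 and 16), and the GC and length offset, added after seeing the data, 349 (135 higher). Without both E-titled libraries, where the lone KO_CCL4 15 is assumed to vary like the other groups, 42 passed (34 and 8) and Hmgb2 did not (log2 -3.78, adjusted p = 0.123). Of the called genes named by rule, the fit of only the 6 libraries lost 50 of 65 and limma-voom 34 of 67. The causes were not tested. Scaling by RLE or without the most abundant genes, no filter and robust estimation kept the counts within 1.5 times of the 202. No paired analysis was possible because the 2 groups share no replicate number.

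Among named genes, those that changed direction had not passed in the main analysis. The groups of called genes did not overlap, so leaving libraries out could hardly change their direction. The Hmgb3 log2 fold change turned to -0.037 (upper quartile), -0.021 (5 CPM), -0.0060 (E-titled libraries left out) and -0.0057 (GC offset), and ranged from -0.0896 to 0.15 with a library left out. Mup21 turned to -0.015, -0.021 and -0.28 (upper quartile, E-titled libraries out, GC offset) and ranged from -0.27 to 0.26. Hmgb1 turned to -0.10 (GC offset) and ranged from -0.047 to 0.25. Cyp7a1, Per3 and Fdps turned to 0.46, -0.30 and -0.15 without the E-titled libraries. With a library left out Cyp7a1 ranged from -0.86 to 0.0019 and Timp1 from -0.50 to 0.19. Depth limits genes near 1 CPM, such as Timp1 and Kif18b, where a library holds a few reads.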
